A study of Mus musculus with 6 samples.

Results

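S100 proteins, annexins and galectins are 3 families of small or medium-sized proteins that act at the cell surface, at the inner face of the plasma membrane and on the cytoskeleton. The set described here has 10 named genes: S100a4, S100a6, S100a10, S100a11, Anxa1, Anxa2, Anxa3, Anxa5, Lgals1 and Lgals3. They were chosen by gene name in a table of the authors' own comparison, and 9 of the 10 had a row there among 17110 genes. S100a4 (ENSMUSG00000001020) had no row in the tables used and was not analysed here.

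The cells were mouse embryonic stem cells of the line labelled TG2A, grown in serum with leukemia inhibitory factor (LIF). Every cell carried a reporter gene under control of MERVL, a retrovirus-derived element that mouse embryos switch on as two-cell embryos and that few stem cells express in culture. Sorting by fluorescence gave DsRed2-positive and DsRed2-negative cells, each group with 3 biological replicates that were collected on separate days, and polyadenylated RNA was sequenced. The groups differ in the labels only by reporter signal, and the line is a single one.

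The comparison between the sorted groups was read from the authors' deposited table, which gives for each gene a mean count over libraries, normalized for library size, a log2 fold change, its standard error and an adjusted p-value from DESeq2. The table does not say which group is the numerator of its fold changes, nor does it name the groups. Signs are therefore given as deposited: a negative gene was lower on the numerator side, whichever sorted group that is. The table holds no values per library, so levels in single samples are not shown and the error of each value is the authors' standard error, abbreviated SE, from which 95% intervals were computed. In bulk RNA, fewer cells of one type and less RNA per cell cannot be told apart.

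The labelled cell type was checked against its markers. Of 10 embryonic stem cell markers, 9 had a row in the authors' deposited table, with mean normalized counts from 1260 for Tbx3 to 38163 for Dppa5a. None of the 8 two-cell markers listed for this check had a row. Other two-cell genes were not examined here, and the direction of the comparison was not set from any gene. A gene is called here when its deposited adjusted p-value is under 0.05, which holds for 2719 negative and 2492 positive genes.

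S100 proteins are small calcium sensors. Each chain folds around a pair of calcium-binding loops called EF-hands, the chains form dimers, and calcium exposes a surface that grips a target protein. Annexins bind the acidic phospholipids of membranes when calcium rises, and several of them carry an S100 dimer, which lets the complex bridge membranes or hold a membrane to actin. Galectins are lectins that bind galactose-containing sugars on glycoproteins, both outside the cell, where they crosslink receptors, and inside it, where they mark damaged vesicles. All 3 families are typically abundant in fibroblasts, epithelia and other differentiated cells with a strong cell cortex.

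Promoter sequences of the members are shown first, because members from unlinked loci shared a sign in the comparison. RefSeq promoters on GRCm38.p6 matched 7 of the 10 members, and S100a10, Anxa3 and Lgals1 had no entry. The submitters' processing notes name GRCm39, so these positions refer to the reference sequence alone. The 250 bases before the annotated start were searched on both strands for TGANTCA (the site of AP-1), GGAATG (the site of TEAD factors), the CArG box of SRF, GGGCGG (the GC box) and TATAAA (the TATA box). Matches stand in capitals, 5′ to 3′ on the strand of the gene. A match on the other strand therefore reads as the reverse complement, and 0 matches to different motifs overlapped. S100a11 and Anxa2 are shown because they hold the AP-1 letters, Anxa1 because it holds the TEAD letters and a TATA box, S100a6 as the most negative member with an entry, and Lgals3 as the one positive member.
S100a11 promoter, chr3:93520246-93520495, plus strand: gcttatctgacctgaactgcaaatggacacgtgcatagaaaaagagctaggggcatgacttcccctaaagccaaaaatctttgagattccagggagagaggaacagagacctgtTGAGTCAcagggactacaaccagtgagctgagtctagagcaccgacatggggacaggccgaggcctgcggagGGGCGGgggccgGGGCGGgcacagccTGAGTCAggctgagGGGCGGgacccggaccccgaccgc
Anxa2 promoter, chr9:69453433-69453682, plus strand: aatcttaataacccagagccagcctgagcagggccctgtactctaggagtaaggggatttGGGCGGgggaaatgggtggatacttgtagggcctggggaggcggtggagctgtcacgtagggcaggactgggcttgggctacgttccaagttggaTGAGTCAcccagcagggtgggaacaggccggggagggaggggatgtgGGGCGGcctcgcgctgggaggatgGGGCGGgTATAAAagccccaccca
Anxa1 promoter, chr19:20390672-20390921, minus strand: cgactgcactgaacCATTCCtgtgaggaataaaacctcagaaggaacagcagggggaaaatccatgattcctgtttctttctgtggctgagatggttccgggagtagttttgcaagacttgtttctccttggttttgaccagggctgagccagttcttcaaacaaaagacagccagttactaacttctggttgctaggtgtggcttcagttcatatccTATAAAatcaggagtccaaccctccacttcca
S100a6 promoter, chr3:90612644-90612893, plus strand: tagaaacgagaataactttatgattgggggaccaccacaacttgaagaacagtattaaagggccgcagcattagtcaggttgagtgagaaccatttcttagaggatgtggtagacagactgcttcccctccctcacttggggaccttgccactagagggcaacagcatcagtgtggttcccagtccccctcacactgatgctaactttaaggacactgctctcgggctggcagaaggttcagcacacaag
Lgals3 promoter, chr14:47373610-47373859, plus strand: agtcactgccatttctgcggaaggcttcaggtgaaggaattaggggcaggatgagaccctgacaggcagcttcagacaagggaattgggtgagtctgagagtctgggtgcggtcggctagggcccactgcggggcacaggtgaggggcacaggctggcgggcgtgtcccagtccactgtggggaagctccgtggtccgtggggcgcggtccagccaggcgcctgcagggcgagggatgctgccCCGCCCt

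The letters TGANTCA stood in 2 of the 7 member promoters, those of S100a11 and Anxa2, and in 6.75% of all 32817 promoters of this length and 4.34% of the 14648 promoters of genes in the comparison table. In S100a11 they began 136 and 38 bases before the start, and in Anxa2 they began 95 bases before it. GGAATG was in 1 member promoter, that of Anxa1, 236 bases before the start, against 12.6% of all promoters and 1609 of the 14648 promoters of table genes. A GC box was in 3 member promoters (S100a11, Anxa2 and Lgals3), against 32.7% of all promoters and 56.5% of those of table genes. TATAAA was in 3 (Anxa1, Anxa2 and S100a4), against 12.4% of all promoters and 6.57% of those of table genes, and it lay 32 bases before the start in Anxa1, 17 in Anxa2 and 31 in S100a4. The CArG box was in 0 of the 7, against 1.47% of all promoters and 1.20% of those of table genes. S100a6 and Anxa5 held none of the 5 motifs in this window. The members thus had no motif in common among those searched, and a match describes letters only.

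Of the 9 members with a row, 8 were called negative and 1 was called positive in the authors' deposited table. Over all 17110 genes, 15.9% were called negative, 14.6% positive and 30.5% either way. By the authors' own call, which also asks for an absolute log2 fold change over 0.5, the same 8 members were down and the same 1 was up, where 12.1% of all genes were down and 9.40% up. The members were proposed with results of these data known, so their share of calls is a description. Their median log2 fold change was -1.64, beside 0.01 over all genes. Anxa3 was the most negative of them, followed by S100a6 and Anxa2, and Lgals3 was the positive one.

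**Figure D1:**
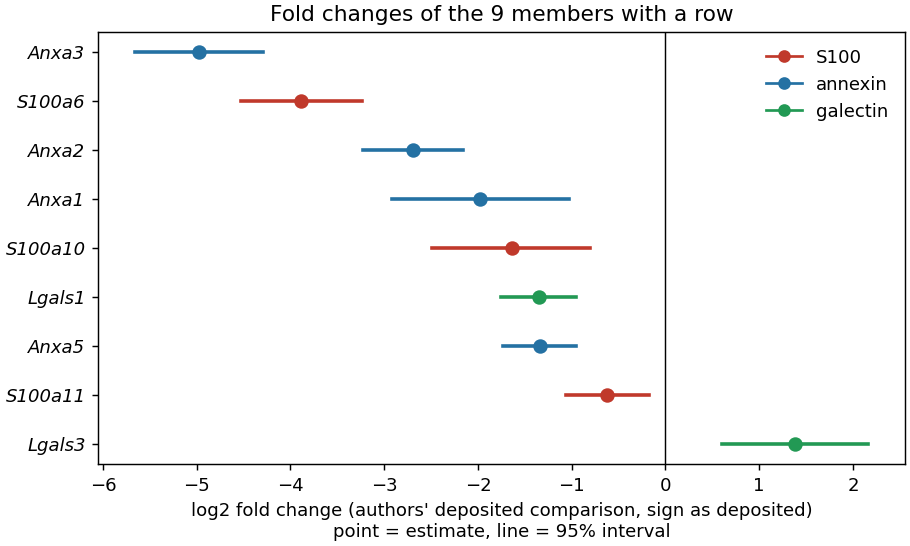
Log2 fold change of the 9 members with a row in the authors' deposited table (horizontal axis, sign as deposited), with the 95% interval as a line and the family as colour. Anxa3 lies at -4.98, Lgals3 at 1.38, and no interval crosses 0.

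Among the S100 members, S100a6 stood furthest from 0. S100a6 (ENSMUSG00000001025), also called calcyclin, is a calcium sensor linked to cytoskeletal and proliferating cells. The authors' deposited table gives it a mean normalized count of 570 and a log2 fold change of -3.89 ± 0.33 (SE), a 14.8-fold difference (95% interval 9.43 to 23.1, DESeq2 adjusted p-value 7.93e-30). With equal weight for both sides, that mean and fold correspond to about 72.3 normalized counts on the numerator side and 1068 on the other. Only 0.771% of all genes had a fold change as negative as that of S100a6.

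S100a10 (ENSMUSG00000041959), also called p11, has lost calcium binding in its EF-hands and holds annexin A2 at all times, forming a complex that recruits plasminogen to the cell surface. It had the highest mean count of the members, 1796, and a log2 fold change of -1.64 ± 0.43 (SE) in the authors' deposited table (DESeq2 adjusted p-value 0.000819). The fold was 3.13, with a 95% interval from 1.74 to 5.60. S100a11 (ENSMUSG00000027907), a partner of annexin A1, was the member nearest to 0. Its log2 fold change was -0.62 ± 0.22 (SE) at a mean count of 911 in the authors' deposited table (DESeq2 adjusted p-value 0.0212). That is a 1.54-fold difference with an interval from 1.14 to 2.09, and the call of S100a11 was lost at an adjusted p-value under 0.01.

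All 4 annexin members were negative. Anxa3 (ENSMUSG00000029484), an annexin found in the cytoplasm and on vesicles, had a mean count of 586 and a log2 fold change of -4.98 ± 0.35 (SE) in the authors' deposited table (DESeq2 adjusted p-value 2.73e-43). This 31.5-fold difference (95% interval 19.5 to 50.7) corresponds to about 36.1 normalized counts on the numerator side and 1136 on the other, and 0.392% of all genes were as negative. Anxa2 (ENSMUSG00000032231), which joins S100a10 and binds actin and membrane lipids, had a log2 fold change of -2.69 ± 0.27 (SE) at a mean count of 1025 in the same deposited table (DESeq2 adjusted p-value 3.49e-21). The 95% interval of Anxa2 ran from -3.23 to -2.16, and that of its partner S100a10 from -2.49 to -0.80.

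Anxa1 (ENSMUSG00000024659), a mediator of the anti-inflammatory action of glucocorticoids, was the least abundant member, with a mean count of 55.8 in the authors' deposited table. Its log2 fold change was -1.98 ± 0.48 (SE) (DESeq2 adjusted p-value 0.000298), and its interval ran from -2.92 to -1.03, while that of its partner S100a11 ran from -1.06 to -0.18. Anxa5 (ENSMUSG00000027712), whose affinity for phosphatidylserine makes it a common probe for dying cells, stood at -1.34 ± 0.20 (SE) at a mean count of 260 in the authors' deposited table (DESeq2 adjusted p-value 2.48e-10). The fold of Anxa5 was 2.53, with a 95% interval from 1.94 to 3.31.

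The galectin members went in opposite directions. Lgals1 (ENSMUSG00000068220), a galectin with a single sugar-binding domain that works as a dimer, had a mean count of 1724 and a log2 fold change of -1.35 ± 0.20 (SE) in the authors' deposited table (DESeq2 adjusted p-value 8.39e-10). Lgals3 (ENSMUSG00000050335) joins its sugar-binding domain to a flexible tail through which it forms oligomers and gathers on damaged endosomes and lysosomes. Its mean count was 256 and its log2 fold change 1.38 ± 0.40 (SE) in the authors' deposited table (DESeq2 adjusted p-value 0.00288). The interval of Lgals3, from 0.60 to 2.16, lay apart from that of Lgals1, from -1.75 to -0.95. The fold was 2.60 for Lgals3 and 2.55 for Lgals1. By the mean and fold, Lgals3 had about 370 normalized counts on the numerator side and 142 on the other, and Lgals1 about 971 and 2478.

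**Figure D2:**
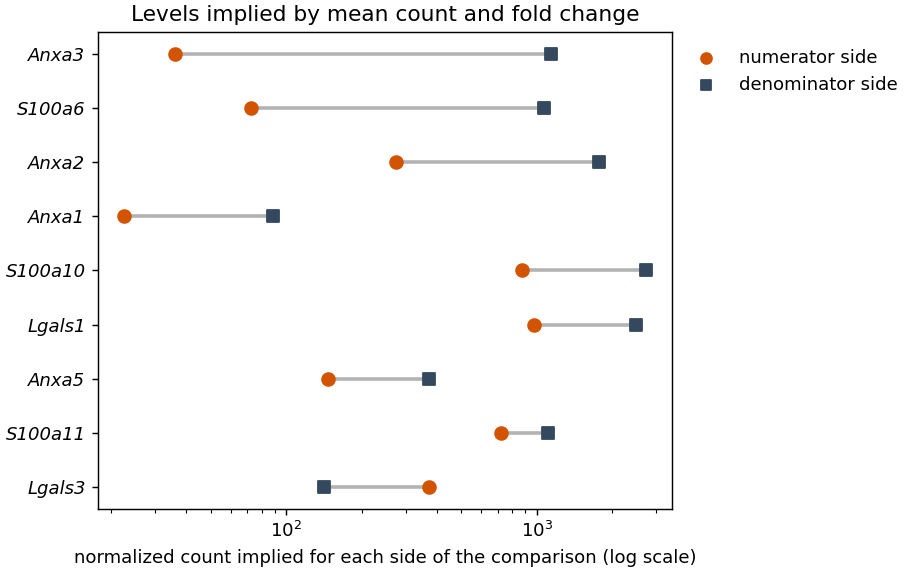
Normalized counts that the deposited mean and fold change imply for each side of the comparison (log scale), with a circle for the numerator side and a square for the denominator side. Anxa3 goes from 1136 to 36.1, S100a11 from 1104 to 718, and Lgals3 has the reverse order; the values assume that both sides weigh equally in the mean and are not measurements of single libraries.

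Ordered from the most negative, the fold changes ran Anxa3, S100a6, Anxa2, Anxa1, S100a10, Lgals1, Anxa5, S100a11 and Lgals3. Differences between neighbours were set against a standard error combined from both genes as if they were independent, although they share libraries. Sorting on the same fold changes makes every difference positive. The intervals were not adjusted for this sorting or for the number of pairs, so they only describe the spacing. For 4 of the 8 neighbouring pairs the 95% interval of the difference excluded 0. These were Anxa3 and S100a6 (difference 1.09, interval 0.15 to 2.03), S100a6 and Anxa2 (1.19, 0.35 to 2.03), Anxa5 and S100a11 (0.72, 0.13 to 1.30), and S100a11 and Lgals3 (2.00, 1.11 to 2.90). The intervals of the other 4, all among Anxa2, Anxa1, S100a10, Lgals1 and Anxa5, held 0, which does not show that these genes changed alike. The order of levels was another one. Per kilobase of the longest GENCODE M21 transcript, the mean normalized count was 2622 for S100a10, 2156 for Lgals1 and 1783 for S100a11. S100a6 followed with 728 per kilobase, then Anxa2 with 450 and Anxa3 with 367. Lgals3 had 180, Anxa5 150 and Anxa1 33.3, so the members spanned a 78.7-fold range of level.

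The members' standard errors were wide for their level. For each gene, the standard error was set among genes with a mean count within 2-fold of its own. In the authors' deposited table, 7 of the 9 members lay at or above the 90th percentile of such genes, with a median percentile of 97.9. S100a10 was the highest, at 99.2, with a standard error of 0.43 where the median gene of its level had 0.11. Anxa5 was the lowest, at 53.4, with 0.20 against a median of 0.19. Of the other 14 genes of the 3 families with a row, 1 lay at or above the 90th percentile and the median percentile was 46.6. Wide errors were not particular to the members. The keratin gene Krt8 and the actin-binding Tagln, also strongly negative, lay at 99.7 and 99.6, while Twist1, at -2.54, lay at 37.8. Levels were matched on the mean over both groups, so unequal counts between the groups were not taken into account. Whether 1 library sets the errors of the members was not tested, since values per library were not used.

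The rest of the 3 families was less one-sided. The members were picked with results of these data known, so this contrast is a description only. Of 30 further S100, annexin and galectin genes, 14 had a row in the authors' deposited table, with 7 negative and 7 positive fold changes and a median log2 fold change of 0.03. Of these, 1 was called negative and 3 positive, which is 28.6% called beside 30.5% of all genes. The absent genes, such as S100a8, S100a9 and Lgals7, were not analysed here.

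The 3 called positive came from 1 family each. Anxa6, an annexin with a doubled core that binds membranes and actin, was the most abundant gene of the 3 families, with a mean count of 4065. Its log2 fold change was 1.19 ± 0.088 (SE) in the authors' deposited table (DESeq2 adjusted p-value 2.46e-39). Lgals9, a galectin with a pair of sugar-binding domains, stood at 1.56 ± 0.27 (SE) (DESeq2 adjusted p-value 1.75e-07 in the deposited table). S100a16, an S100 protein found in many tissues, stood at 1.64 ± 0.40 (SE) at a low mean count of 32.7 (DESeq2 adjusted p-value 0.000275 in the deposited table). Lgalsl, a galectin-like protein, was the one called negative, at -0.41 with a standard error of 0.12 and below the authors' limit of 0.5 (DESeq2 adjusted p-value 0.00281).

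The other 10 did not pass in the authors' deposited table. S100a1 and S100a13 had log2 fold changes of -0.95 and -0.97 at mean counts of 34.1 and 39.1, with 95% intervals from -2.26 to 0.37 and from -1.98 to 0.04. These intervals are wide enough to hold values like those of S100a10 and S100a11. Anxa7 and Anxa11, which were well measured at mean counts of 2998 and 2926, had 0.12 and 0.20, with intervals from -0.07 to 0.31 and from -0.03 to 0.42. The fold changes of Anxa7 and Anxa11 therefore lay far from that of Anxa5, whose interval ended at -0.95. Anxa4 stood at -0.44 and Lgals8 at -0.36 (DESeq2 adjusted p-values 0.0848 and 0.131 in the deposited table), and both passed after centring on ribosomal protein genes. Anxa8, Anxa9, Lgals4 and Lgals12 lay between -0.63 and 0.75 at mean counts of 92.4 or less.

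**Figure D3:**
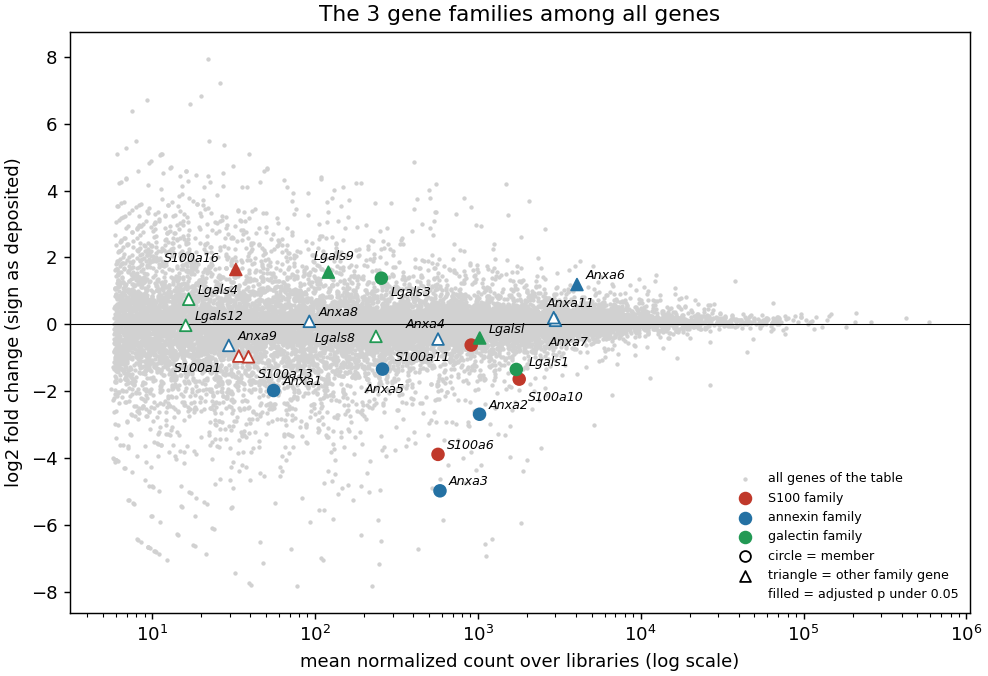
Mean normalized count (log scale) against log2 fold change in the authors' deposited table, with all 17110 genes in grey and the 23 genes of the 3 families in colour; circles are members, triangles other family genes, and filled symbols have an adjusted p-value under 0.05. The members fill the lower middle of the plot down to -4.98, while Anxa6 stands above 0 at the highest count of the families.

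The S100 genes lie together on chromosome 3, so they were also viewed in gene order. RefSeq lists 15 of them there on GRCm38, from S100a1 to S100a10, with 70 protein-coding genes from the first to the last. In the authors' deposited table, 9 of the 70 had a row, of which 5 were called negative and 1 positive. The negative ones were the members S100a6, S100a11 and S100a10, picked with results of these data known, and Sprr2a2 and Sprr2a3. The counts of this run are therefore a description and no separate evidence about the locus. Over all genes, 15.9% were called negative and 14.6% positive. S100a16 (1.64) and S100a6 (-3.89) lie near each other in this run and had opposite signs. The called genes between S100a6 and S100a11 were Sprr2a2 and Sprr2a3, small proline-rich proteins of the cornified envelope of skin. They stood at -7.82 and -7.45 with standard errors of 1.24 and 1.36 in the authors' deposited table, and as near-copies of each other they could have shared reads. Of the 10 protein-coding genes just before S100a1, all had a row, 1 was called negative and 2 positive, and their median log2 fold change was 0.09. Of the 10 just after S100a10, the 1 with a row, Them4, was called negative at -0.51 in the authors' deposited table.

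**Figure D4:**
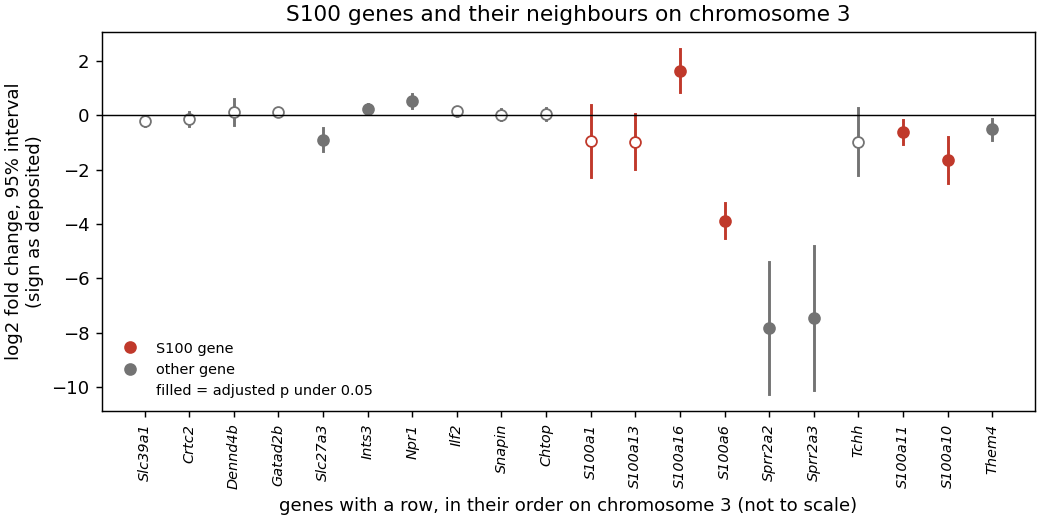
Log2 fold change with 95% interval (vertical axis, sign as deposited) of the genes with a row in their order on chromosome 3, with S100 genes in red and other genes in grey; filled points have an adjusted p-value under 0.05. S100a6 and the Sprr2a genes lie far below 0, S100a16 lies above it, and the genes before S100a1 stay between -0.89 and 0.53.

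Partners of the S100 and annexin members in membrane repair and at the cell surface were all measured. Of 22 listed genes, 8 were called negative and 3 positive in the authors' deposited table, and the median was -0.25 on the log2 scale. These 11 calls among 22 genes stand beside 30.5% called of all genes, with 15.9% negative and 14.6% positive. The list was chosen with earlier results of these data known, so its share of calls is a description. Capn2, the catalytic subunit of a calcium-activated protease, stood at -2.27 ± 0.22 (SE), while Capn1, which shares its small subunit, stood at 0.66 with 0.19 (DESeq2 adjusted p-values 4.24e-23 and 0.00276 in the deposited table). Cavin1, a coat protein of caveolae, stood at -1.14 ± 0.15 (SE) (DESeq2 adjusted p-value 3.95e-12 in the deposited table). The most negative gene of the list was Cav1, at -6.64 ± 1.39 (SE) and a mean count of only 18.4 (DESeq2 adjusted p-value 1.75e-05). Myof, a ferlin that patches torn membranes, was positive at 1.79 ± 0.20 (SE) (DESeq2 adjusted p-value 8.42e-18 in the deposited table). The plasminogen activators Plau and Plat, which act with the S100a10 and annexin A2 complex, stood at -2.87 and -2.02 at mean counts of only 15.6 and 23.3 in the authors' deposited table. Ahnak, a very large scaffold that binds the same complex, had -0.03 ± 0.26 (SE) (DESeq2 adjusted p-value 0.947 in the deposited table).

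Galectin ligands and the enzymes that build their sugars went both ways. Of 18 listed genes, all with a row, 5 were called negative and 4 positive in the authors' deposited table, and the median was -0.12 on the log2 scale. All genes also split nearly evenly, with 15.9% called negative and 14.6% positive. Either way, 9 of the 18 were called, beside 30.5% of all genes, in a list likewise chosen with earlier results known. St3gal6, which caps galactose with sialic acid, stood at -4.40 ± 0.63 (SE), and Cd44, a surface glycoprotein that binds hyaluronan, at -3.31 with 0.51 (DESeq2 adjusted p-values 6.50e-11 and 1.66e-09 in the deposited table). Trim16, a ligase that works with galectin-3 at damaged lysosomes, was positive like Lgals3, at 2.11 ± 0.51 (SE) and a mean count of 28.5 (DESeq2 adjusted p-value 0.000237 in the deposited table). Mgat5, the branching enzyme that makes the preferred sugars of galectin-3, had -0.14 ± 0.19 (SE) (DESeq2 adjusted p-value 0.636 in the deposited table).

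Markers of other cell types moved in the same comparison. Of 10 trophectoderm markers, 9 had a row in the authors' deposited table, 7 were called negative and 0 positive, and their median log2 fold change was -3.68. Krt8 and Krt19, keratins of simple epithelia, stood at -4.39 and -4.73 at mean counts of 1903 and 834. Of 13 fibroblast or feeder markers, 8 had a row, 5 were called negative and 0 positive, with a median of -1.81. Their summed mean count was 2142, of which Tagln, an actin-binding protein, held 1849, while the collagen genes Col1a1 and Col1a2 had 20.9 and 10.1 in the authors' deposited table. Of 11 primitive endoderm markers, 7 had a row, with 3 called negative and 1 positive. Embryonic stem cell markers went the other way, with 6 of 9 called positive and 0 negative and a median of 0.73. Shares called were 77.8% of the trophectoderm, 62.5% of the fibroblast or feeder, 57.1% of the primitive endoderm and 66.7% of the stem cell markers. Over all genes the share was 30.5%. Of 6 macrophage markers, the 1 with a row was Cd68, at a log2 fold change of 0.91 and a mean count of 166 in the authors' deposited table. The part of these cell types in the fold changes of the members was not tested, and their levels in each group were not analysed here.

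**Figure D5:**
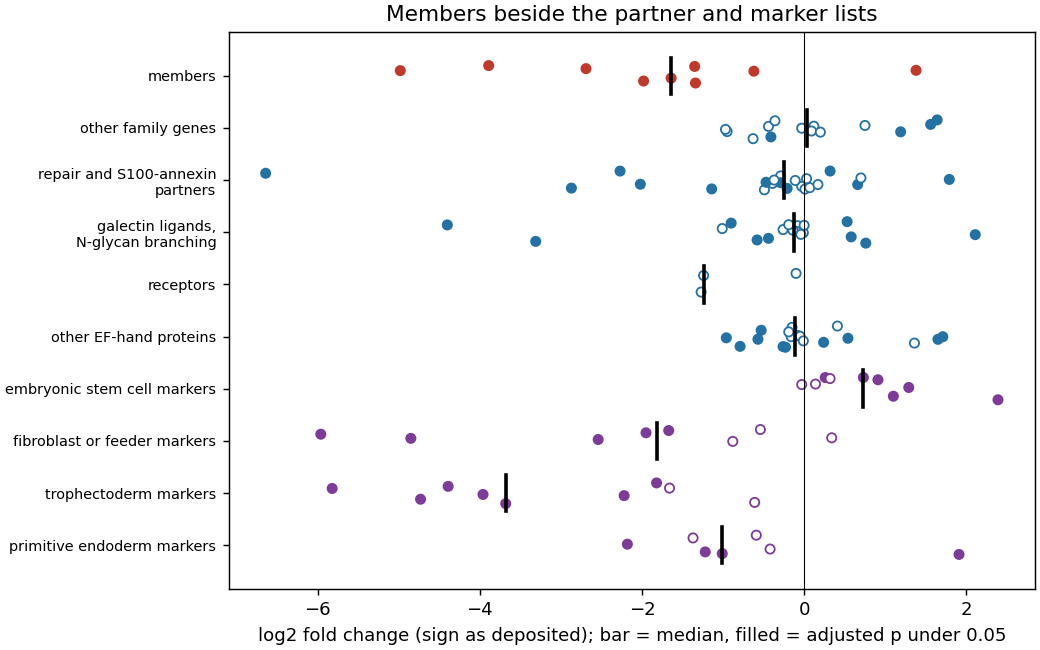
Log2 fold changes in the authors' deposited table (horizontal axis, sign as deposited) of the members, the other family genes, the partner lists and the marker lists, 1 point per gene, with the median as a bar and filled points at an adjusted p-value under 0.05. The members' median of -1.64 lies between the medians of the primitive endoderm and the fibroblast or feeder markers, at -1.01 and -1.81, and the other family genes centre on 0.03.

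Some members have copies or neighbours that could share reads. GENCODE M21 lists the pseudogenes S100a11-ps, Lgals1-ps1 and Lgals1-ps2, none of which had a row in the authors' deposited table. Anxa2 overlaps the antisense gene Gm16144, and Anxa1 overlaps 1500015L24Rik on the opposite strand. On the same strand, Anxa3 overlaps Gm42603, and Anxa2 and Anxa5 overlap the microRNA genes Mir3109 and Mir7009. The submitters' processing notes name RSEM, but its strand setting and the number of reads such genes share are not given in the sources used here. The values of S100a11, Lgals1, Anxa1, Anxa2, Anxa3 and Anxa5 carry this uncertainty.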

How the data were processed

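Polyadenylated RNA of 6 samples in 2 groups was sequenced. Per the submitters' processing notes, Trimmomatic 0.39, STAR 2.7.11b, RSEM 1.3.3, DESeq2 1.45.3 and GRCm39 were used; model formula and reference group are not given in the sources used here. The authors deposited, per gene, a mean normalized count (a signal over all libraries), a log2 fold change with its standard error on the log2 scale, a statistic (a score, equal to fold change over standard error within 5.77e-07), a p-value and an adjusted p-value. A count table was not used beyond its gene names: its 6 columns match no sample label, so depth and replicate values are not analysed here, and no edgeR or DESeq2 fit was run here. The labels name no groups besides the sorted ones, so the comparison was read as theirs.

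From these values were computed 95% intervals, ranks, counts and medians per list, and alternatives (Python 3.11.15, R 4.3.3). Recomputed p-values came from the normal distribution with Benjamini-Hochberg adjustment. They were tried on simulated data with normal errors of the deposited size. That checks the computation alone, not whether such p-values suit 3 replicates per group. Lengths and GC content came from GENCODE M21 for 98.2% of genes, by gene ID. The genes named are the members, their family genes with a row, called genes between the outermost S100 genes on chromosome 3 and, of each partner list, up to 3 called genes with an absolute log2 fold change over 1. Them4, Capn1, Cav1, Plau, Plat, Ahnak, Mgat5, the markers and the genes of the closing section beyond this rule were picked with their values in view. Members and lists were chosen with earlier results of these data known.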

Additional observations from a re-analysis of the deposited data

How the results depend on the processing

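The counts of 8 negative and 1 positive member held under both centrings, a recomputed adjustment, the fold limit of 0.5, removal of GC and length trends, and a floor of 50 on the mean count. The limit of 0.5 and the floor could remove no member. S100a11, the nearest to 0, stood at -0.62, and the lowest mean count was 55.8. The recomputed adjustment used the deposited p-values, so little change was possible there. S100a11 was the exception elsewhere: 7 members were negative at an adjusted p-value under 0.01 and at an absolute log2 fold change over 1, which those limits themselves produce. Of 72 values of the members under an alternative, 70 kept direction and call, and 2, both of S100a11, lost the call. Only the centrings and the trend removal alter a fold change, so most of the 72 values could not change direction. Over all 8 alternatives Anxa3 ranged from -5.07 to -4.98 and Lgals3 from 1.29 to 1.38. Among the other family genes, Anxa8 turned from 0.09 to -0.00027 after centring on ribosomal protein genes, without a call, and Anxa4 (-0.54) and Lgals8 (-0.46) gained one there. That centring, a shift of 0.093, moved the positive share of all calls from 47.8% to 34.7%. Calls over all genes dropped from 2719 to 1315 negative at an absolute log2 fold change over 1, and from 2492 to 1609 and 957 positive over 0.5 and 1, by construction.

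No paired analysis was possible because replicate numbers appear neither in the names of the count columns nor in the comparison table. For the same reason the edgeR fits, the fit with a replicate block and the fits that leave out a replicate were not run, and whether 1 library decides a value is not answered here. S100a1 and S100a13, with mean counts of 34.1 and 39.1, have standard errors of 0.67 and 0.51. The median gene of their level had 0.45 and 0.43, and S100a16, at a mean count of 32.7, had 0.40. The part of depth in these errors was not tested.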

Other observations

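Calcium sensors outside the S100 family were looked at as a group. Of 20 listed small EF-hand proteins, 18 had a row in the authors' deposited table, 6 were called negative and 4 positive, and the median log2 fold change was -0.12. The calls made up 55.6% of those with a row, beside 30.5% of all genes. Calml4, an EF-hand protein, and Calb2, which encodes the calcium buffer calretinin, were the called genes past 1 on the log2 scale, at 1.65 and 1.71 with standard errors of 0.25 and 0.52. Their mean counts were 110 for Calml4 and only 18.7 for Calb2. The most negative was Rcn2, a calcium-binding protein of the endoplasmic reticulum, at -0.96 ± 0.15 (SE) (DESeq2 adjusted p-value 7.72e-10 in the deposited table).

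Receptors for secreted S100 proteins, annexins and galectins were mostly without a row. Of 10 listed, 3 had one in the authors' deposited table, and by DESeq2 0 were called and 0 had an unadjusted p-value under 0.05. Over all genes, 30.5% were called. Ager, the S100 receptor also called RAGE, and Alcam had mean counts of 11.9 and 15.0. Their log2 fold changes were -1.24 and -1.27, with wide 95% intervals from -2.5 to 0.01 and from -2.6 to 0.06. Bsg, a surface glycoprotein, had a mean count of 9598 and a log2 fold change of -0.10 ± 0.072 (SE).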
